A study of Mus musculus with 2 samples.

Results

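CXCR2 is the receptor through which mouse neutrophils sense a family of CXC chemokines, and 8 genes of this axis were followed here. They are the receptors Cxcr2 and Cxcr1, the ligands Cxcl1, Cxcl2, Cxcl3, Cxcl5 and Ppbp, and the related chemokine gene Pf4. They were chosen by gene symbol among the 31053 genes of the deposited tables, and all 8 were present. The samples were single cells from eyes of C57BL/6 mice that had received an intraocular injection of zymosan, a yeast cell wall preparation that provokes inflammation. One group was given antiserum against CXCR2 (aCXCR2). The other was given NRS, an abbreviation that the labels do not spell out and that is taken here as the control serum. Cells were taken from vitreous and from the rinsed retina, those carrying the neutrophil antigen Ly6G were enriched with MACS beads, and single cells were captured with 10x 3' chemistry. The labels give neither the age of the mice, nor the times and doses, nor how many mice entered each library.

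Each group was 1 library, so differences between groups lack replicates, and they are given without any test or p-value. In aCXCR2 there were 5551 barcodes with 85748842 unique molecular identifiers in all (UMIs, each standing for 1 captured RNA molecule). The 4826 cells that passed the filter had a median of 10383.5 UMIs. In NRS there were 7314 barcodes with 61386486 UMIs, and the median over the 5655 cells that passed was 4759 UMIs. Levels are UMIs per 1000000 UMIs (CPM) summed over the cells of a class in 1 library. All brackets after CPM values, shares and ratios are exact 95% intervals, which cover counting error only. The 2 libraries shared 101 barcodes, of which 53 were kept in both, and leaving these out moved none of the ratios in neutrophil-like or macrophage-like cells outside its interval.

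Chemokines of this family are small secreted proteins. CXCL1, CXCL2, CXCL3, CXCL5 and the processed form of PPBP carry the ELR motif that CXCR2 recognises, and they draw neutrophils out of the blood. PF4 lacks that motif and is not regarded as an activating ligand of CXCR2, but its gene lies among theirs. Cxcl1, Cxcl2 and Cxcl3 are classic targets of NF-kB in activated myeloid cells, whereas Ppbp and Pf4 are best known from megakaryocytes and platelets. CXCR2 is a G protein-coupled receptor that is taken off the surface when ligand binds. A transcript level therefore says nothing of the receptor protein.

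The 6 ligand genes lie within 146.6 kb of mouse chromosome 5, all on the plus strand, in the GENCODE M21 annotation of GRCm38. Their order is Cxcl5 (90759360 to 90761624), Ppbp (90768518 to 90770063), Pf4 (90772435 to 90773383), Cxcl3 (90786103 to 90789600), Cxcl1 (90891241 to 90893115) and Cxcl2 (90903871 to 90905938). The receptor genes are neighbours on chromosome 1, Cxcr2 on the plus strand at 74153989 to 74161246 and Cxcr1 on the minus strand at 74191785 to 74194631. The RefSeq promoter table (GRCm38.p6) held 7 of the 8 members, and Cxcl5 was the one not matched. The 100 bases before the transcription start of 5 ligands are shown because the ligands found in both classes and those found in macrophage-like cells can be set side by side. Those of Cxcl1, Cxcl2 and Cxcl3, the ligands with UMIs in neutrophil-like and macrophage-like cells, each hold the letters of an NF-kB motif, printed in capitals. Those of Ppbp and Pf4, whose UMIs lay in macrophage-like cells, do not hold those letters.
Cxcl1 (chr5:90891145-90891244, plus strand): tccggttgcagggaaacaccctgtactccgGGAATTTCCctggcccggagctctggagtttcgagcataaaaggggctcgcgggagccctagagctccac
Cxcl2 (chr5:90903799-90903898, plus strand): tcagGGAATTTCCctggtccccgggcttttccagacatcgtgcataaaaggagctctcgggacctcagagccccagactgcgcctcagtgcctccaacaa
Cxcl3 (chr5:90786001-90786100, plus strand): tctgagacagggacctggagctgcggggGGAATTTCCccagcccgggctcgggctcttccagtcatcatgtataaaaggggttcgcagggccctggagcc
Ppbp (chr5:90768418-90768517, plus strand): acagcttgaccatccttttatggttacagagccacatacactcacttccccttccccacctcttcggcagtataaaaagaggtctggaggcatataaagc
Pf4 (chr5:90772335-90772434, plus strand): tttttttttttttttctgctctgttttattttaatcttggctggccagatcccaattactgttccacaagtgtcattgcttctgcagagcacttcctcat

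The motif searched was GGAATTTCC, on both strands, and it was chosen with these promoters known. It starts 70 bases before the transcription start of Cxcl1, 96 bases before that of Cxcl2 and 72 bases before that of Cxcl3. All distances here are from the RefSeq start. For Cxcl2 that start (90903899) lies inside the GENCODE gene, which begins at 90903871, so its distances from the GENCODE start are shorter. In windows of 250 bases before the start it was present in 94 of 32851 promoters of the table (0.286%), and in 3 of the 7 members matched. The TATA-like letters ATAAAA, on either strand, were in 17.0% of those windows. On the plus strand they begin 34 bases before the start of Cxcl1, 57 before that of Cxcl2, 29 before that of Cxcl3 and 29 before that of Ppbp. The GATA letters AGATAA, on either strand, were in 9.99% of windows and in no member's. A match of letters is a description and shows no binding. Other forms of the NF-kB site were not searched, and Cxcl5 had no window. With the motif chosen in that way, the split between the ligands supports no link to the cells that held them.

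Cells of both libraries were clustered together on genes other than the 8 members, which gave 21 clusters, named from marker lists. Neutrophil-like clusters held 50.9% of aCXCR2 cells (2455 cells) and 30.7% of NRS cells (1737 cells). Different clusters made up the class in each library. In aCXCR2 it was mostly clusters 2, 5 and 12 (933, 606 and 347 cells), and in NRS mostly clusters 4, 10 and 13 (555, 376 and 312 cells). Macrophage-like clusters held 36.6% of aCXCR2 cells (1768 cells) and 10.8% of NRS cells (608 cells), in spite of the Ly6G enrichment. Cluster 0 accounts for much of that gap, with 1181 cells in aCXCR2 and 63 in NRS. Of all UMIs, macrophage-like cells held 66.5% in aCXCR2 and 32.9% in NRS. Neutrophil-like cells held 27.1% of all UMIs in aCXCR2 and 17.3% in NRS. The 10 neutrophil markers were all detected in neutrophil-like cells and summed to 170038 CPM in aCXCR2 and 59800 CPM in NRS, so the class was richer in those transcripts in aCXCR2.

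Unnamed clusters held a large part of the NRS library. Cluster 1, led by Itpr2, Cstb and Gdf15, met no class and held 85 aCXCR2 cells and 1015 NRS cells. Cluster 3, led by haemoglobin genes but best matched to neutrophils, held 118 aCXCR2 and 883 NRS cells. Cluster 6, with rod and neutrophil markers, held 136 aCXCR2 and 579 NRS cells. Photoreceptor-like cells (204 in aCXCR2 and 641 in NRS), which should not make these chemokines, served as the background of free RNA. In them Cxcr2 stood at 20.7 CPM in aCXCR2 and 37.3 CPM in NRS, and Cxcl2 at 514 CPM in aCXCR2 and 357 CPM in NRS. A single aCXCR2 cell of the photoreceptor-like cluster 7 held 448 of that cluster's 661 Cxcl2 UMIs there, so the background of Cxcl2 is itself uneven. Median depth was 5844.5 UMIs in aCXCR2 and 6069 UMIs in NRS photoreceptor-like cells. In macrophage-like cells it was 30047.5 UMIs in aCXCR2 and 23281 UMIs in NRS. The same CPM thus stands for more UMIs per macrophage-like cell, which limits this background for them.

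**Figure D1:**
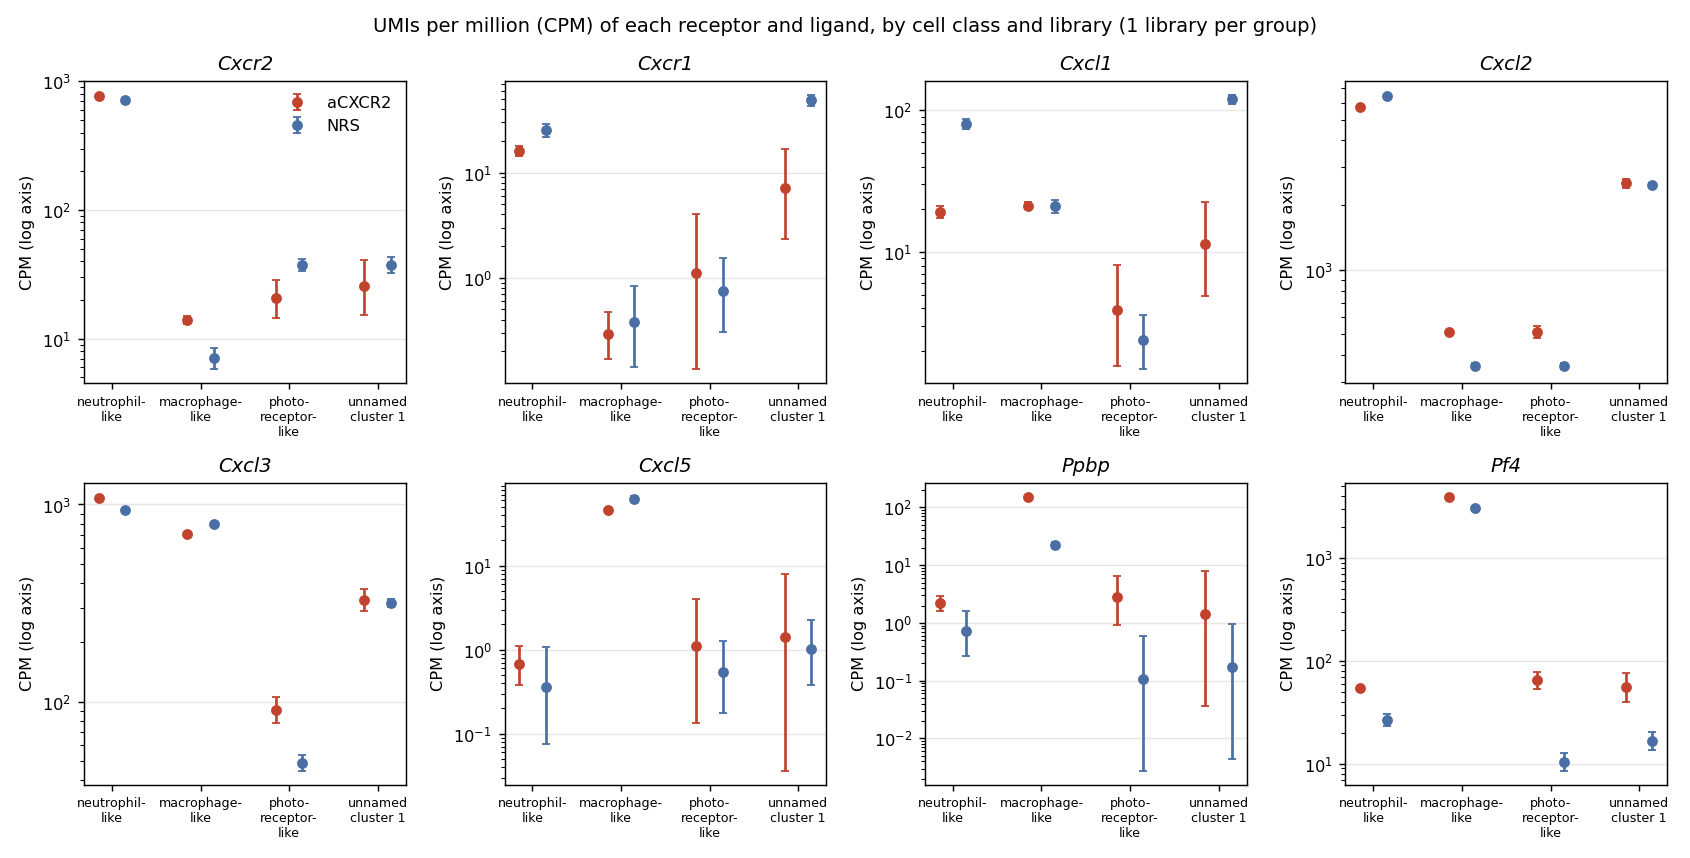
CPM (log axes) of the 8 genes in 3 cell classes and in unnamed cluster 1, with aCXCR2 in red to the left of NRS in blue, 1 library each; bars are exact 95% Poisson intervals. Cxcr2 is highest in neutrophil-like cells, and Cxcl5, Ppbp and Pf4 in macrophage-like cells, in both libraries.

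Cxcr2 was a transcript of neutrophil-like cells in both libraries. They held 91.9% of its UMIs in aCXCR2 (17154 of 18662) and 70.3% in NRS (5909 of 8411). Most of the remaining NRS UMIs lay in the unnamed clusters 6 (11.3%) and 3 (9.25%), which also carry neutrophil markers. The level was 775 CPM (763 to 787) in aCXCR2 and 717 CPM (699 to 736) in NRS neutrophil-like cells. In macrophage-like cells it was 13.9 CPM in aCXCR2 and 7.04 CPM in NRS, below the photoreceptor-like level of each library.

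After each cell was thinned to 1000 UMIs, 44.6% of aCXCR2 (42.6 to 46.6%) and 35.0% of NRS (32.8 to 37.4%) neutrophil-like cells had a Cxcr2 UMI. Without thinning these shares were 75.7% in aCXCR2 and 49.9% in NRS. In photoreceptor-like cells the thinned shares were 1.01% in aCXCR2 and 1.76% in NRS, with median depths of 5844.5 UMIs in aCXCR2 and 6069 UMIs in NRS. The neutrophil-like shares were thus far above the background, whereas macrophage-like cells, at 1.14% in aCXCR2 and 2.35% in NRS, were at about the level of the photoreceptor-like cells. Macrophage-like cells were deeper before thinning, with medians of 30047.5 UMIs in aCXCR2 and 23281 UMIs in NRS. The part of free RNA in their share was not tested. Thinning left out 24 aCXCR2 and 47 NRS neutrophil-like cells with under 1000 UMIs.

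Cxcr2 varied far more among neutrophil-like clusters than between libraries. Cluster 10, led by Hdc, Il1r2 and Fgl2, had 2247 CPM in aCXCR2 and 2724 CPM in NRS, the highest of the clusters with at least 50 cells in either library. Cluster 12, led by Retnlg, had 1820.2 CPM in aCXCR2, where nearly all its cells lay. Cluster 5, led by Gbp2 and Ifitm1, had 994 CPM in aCXCR2 and 1007 CPM in NRS. Clusters 2 and 8 were intermediate, at 506 and 389.9 CPM in aCXCR2 and at 587 and 588 CPM in NRS, and in NRS their intervals overlapped. Cluster 4, led by the heat shock genes Hspa1a and Hspa1b, had only 56.5 CPM in aCXCR2 and 78.0 CPM in NRS. The lowest and highest neutrophil-like clusters thus lay over 1 order of magnitude apart in both libraries.

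Taken over the whole class, the log2 ratio of Cxcr2, aCXCR2 over NRS, was 0.11 (0.07 to 0.15). Within the 5 neutrophil-like clusters that had at least 50 cells in each library it was never above 0. It ranged between -0.59 and -0.02, and the interval lay below 0 in 4 of the 5. The class value and the within-cluster values thus point in different directions, in libraries that fill different clusters. Of the other ways of choosing, scaling or weighting the cells, 6 of 15 also gave a value below 0, and all spanned -0.71 to 0.92. No direction of Cxcr2 between the libraries can be given from these data.

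Cxcr1, the neighbouring receptor gene, was sparse. It stood at 16.1 CPM (14.5 to 17.9) in aCXCR2 and 25.1 CPM (21.8 to 28.8) in NRS neutrophil-like cells, and at 0.29 CPM in aCXCR2 and 0.38 CPM in NRS macrophage-like cells. Neutrophil-like cells held 92.0% of its UMIs in aCXCR2 but 34.6% in NRS. In NRS 47.3% lay in unnamed cluster 1, where Cxcr2 was no higher than in photoreceptor-like cells of that library (37.4 CPM). The top NRS clusters were 4 (54.8 CPM), 1 (48.8 CPM) and 17 (41.4 CPM), which did not differ beyond their intervals. The clusters richest in Cxcr2 in NRS, 10 and 5, had 20.1 and 8.95 CPM of Cxcr1. In aCXCR2 the order differed, and cluster 10 was highest at 82.9 CPM, where 1 cell held 10 of the 22 UMIs. Without that cell it had 46.6 CPM.

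**Figure D2:**
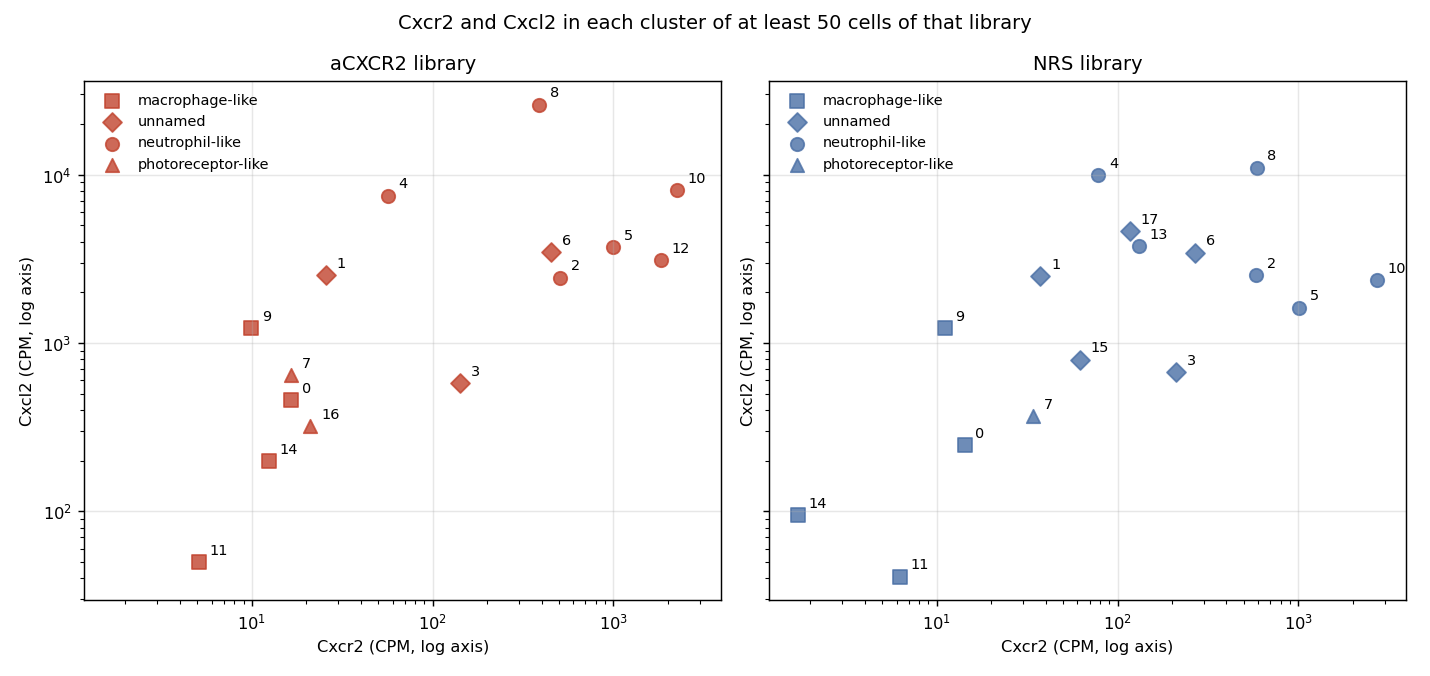
Cxcr2 against Cxcl2 (CPM, log axes) in every cluster of at least 50 cells, aCXCR2 on the left and NRS on the right; marker shapes give the class and labels the cluster number. Cluster 4 joins high Cxcl2 with low Cxcr2 in both libraries, and cluster 10 holds the highest Cxcr2.

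Among the captured, Ly6G-enriched cells, the UMIs of Cxcl2, a main neutrophil chemoattractant of the mouse, lay chiefly in neutrophil-like cells. They held 77.9% of its UMIs in aCXCR2 and 56.9% in NRS, and the next largest NRS sources were unnamed clusters 1 (15.4%) and 6 (13%). The level in neutrophil-like cells was 5755 CPM (5723 to 5787) in aCXCR2 and 6475 CPM (6420 to 6530) in NRS. Thinned to 1000 UMIs, 62.8% of aCXCR2 and 69.3% of NRS neutrophil-like cells had a UMI, against 10.6% of aCXCR2 and 11.1% of NRS photoreceptor-like cells. The transcript was concentrated in few cells. The top 10% of neutrophil-like cells held 65.4% of the class's Cxcl2 UMIs in aCXCR2 and 54.9% in NRS.

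Cluster 8, led by Ccl4, G0s2, Cd14 and Il1a, had the highest Cxcl2 in both libraries, 26084 CPM in aCXCR2 and 11017 CPM in NRS. Cluster 4 had 7513 CPM in aCXCR2 and 9911 CPM in NRS, although it had the least Cxcr2 of the neutrophil-like clusters with at least 50 cells. Cluster 12, rich in Cxcr2, had 3098 CPM in aCXCR2. Among macrophage-like clusters, cluster 9, led by Arg1 and Fn1, was highest, at 1230.0 CPM in aCXCR2 and 1222 CPM in NRS. Cluster 11, led by Spp1 and Apoe, had 50.1 CPM in aCXCR2 and 41.0 CPM in NRS. Cluster 0 held 15973 of the 27885 Cxcl2 UMIs of aCXCR2 macrophage-like cells and 311 of the 5577 in NRS, so the makeup of the class differed here too.

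The class ratio of Cxcl2 in neutrophil-like cells was -0.17 (-0.18 to -0.16), a direction that turned to 0.39 with TMM scaling. It was above 0 in 8 of 15 alternatives, TMM included, and within clusters it was -0.40 in cluster 4, -0.05 in cluster 2, 1.19 in cluster 5, 1.24 in cluster 8 and 1.78 in cluster 10. In macrophage-like cells it was 0.52 (0.48 to 0.56), with 512 CPM in aCXCR2 and 357 CPM in NRS. The photoreceptor-like ratio was 0.53, with 448 of the 921 aCXCR2 UMIs from 1 cell. Without the top cell of each library photoreceptor-like cluster 7 had 221 CPM in aCXCR2 and 338 CPM in NRS (-0.61). The part of free RNA in the macrophage-like value was not tested. With every cell weighted equally the macrophage-like ratio was -0.13.

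Cxcl3, the closest relative of Cxcl2, lay mainly in 2 classes of the captured cells in each library. Macrophage-like cells held 59.9% of its UMIs in aCXCR2 and 45.7% in NRS, and neutrophil-like cells 37.3% in aCXCR2 and 28.4% in NRS. In aCXCR2 the macrophage-like share was below the 66.5% that these cells held of all UMIs. In NRS it was above their 32.9%. The neutrophil-like shares were above the 27.1% of all UMIs in aCXCR2 and 17.3% in NRS. Most of the macrophage part was in cluster 9 (33288 of 38532 UMIs in aCXCR2 and 11915 of 12389 in NRS), at 3889.9 CPM in aCXCR2 and 3134 CPM in NRS, while cluster 11 had 29.9 CPM in aCXCR2 and 24.8 CPM in NRS. Among neutrophil-like clusters, cluster 8 was highest, at 5724 CPM in aCXCR2 and 1646 CPM in NRS. One aCXCR2 cell supplied 1409 of the 12421 UMIs there, and without the top cell of each library the ratio in that cluster was 1.78. Thinned shares of neutrophil-like cells were 20.2% in aCXCR2 and 22.0% in NRS, against 3.54% in aCXCR2 and 3.85% in NRS photoreceptor-like cells. Of 31-base words in the annotated transcripts, Cxcl2 and Cxcl3 share 161 (7.59% of Cxcl2's and 4.56% of Cxcl3's), and no other pair of members shares any. How the authors' counting treated such reads is not given, so a small part of either count is uncertain.

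Over the class, Cxcl3 had 1085 CPM in aCXCR2 and 935 CPM in NRS neutrophil-like cells, a log2 ratio of 0.21 (0.18 to 0.25). In macrophage-like cells it had 708 CPM in aCXCR2 and 793 CPM in NRS, a ratio of -0.16 (-0.19 to -0.13). Within neutrophil-like clusters the values spread widely, between -1.48 in cluster 4 and 3.10 in cluster 5. The macrophage-like value turned to 1.06 without cluster 0, the cluster with 1181 aCXCR2 and 63 NRS cells. Neither class ratio is therefore a property of all its clusters.

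Cxcl1 differed most between the libraries among the members in neutrophil-like cells, and the shares of its UMIs by class differed too. In aCXCR2 macrophage-like cells held 71.0% of its UMIs and neutrophil-like cells 26.2%. That was near their shares of all aCXCR2 UMIs, 66.5% and 27.1%. In NRS neutrophil-like cells held 32.3%, unnamed cluster 1 33.7% and macrophage-like cells 16.0%. Their shares of all NRS UMIs were 17.3%, 12.2% and 32.9%. The level in neutrophil-like cells was 19.2 CPM (17.4 to 21.1) in aCXCR2 and 80.1 CPM (74.1 to 86.5) in NRS, 4.17-fold lower in aCXCR2. The log2 ratio was -2.06 (-2.24 to -1.88). One aCXCR2 cell held 124 of the 425 UMIs, and without the top cell of each library the levels were 13.6 CPM in aCXCR2 and 73.9 CPM in NRS.

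In NRS Cxcl1 was highest in clusters 13 (156 CPM), 15 (137 CPM), 1 (119 CPM) and 4 (109.9 CPM), neighbours whose intervals overlapped. In cluster 15, 93 of 97 UMIs were from 1 cell. Cluster 13 had 24 aCXCR2 cells, and without it the ratio was -1.66. Within cluster 4 the ratio was -2.23, from 44 UMIs in aCXCR2, 19 of them in 1 cell, and 303 in NRS. In cluster 5 it was -2.42, from 20 UMIs in aCXCR2 and 11 in NRS. The aCXCR2 level there (3.07 CPM) was no higher than in photoreceptor-like cells. Cluster 2 gave -0.59 with an interval that held 0, and 15 of its 16 NRS UMIs and 124 of its 187 aCXCR2 UMIs were from 1 cell each. In cluster 8 the ratio was 0.84, where 1 cell held 101 of 164 aCXCR2 UMIs. In cluster 10 it was 0.57 (-1.22 to 2.07), from 5 UMIs in aCXCR2 and 17 in NRS. All 15 alternatives gave a value below 0, between -2.44 and -0.70, and 12 of 15 were at least 2-fold lower. In macrophage-like cells Cxcl1 had 21.2 CPM in aCXCR2 and 20.9 CPM in NRS (0.02, -0.16 to 0.20), mostly from cluster 9 (79.6 CPM in aCXCR2 and 71.5 CPM in NRS), although cluster 14 gave 4.38 (1.81 to 9.73), from 34 UMIs in aCXCR2 and 1 in NRS. The ratio of -1.34 in cluster 0 rested on 1 NRS cell, which held all 39 NRS UMIs there. It was at 3.91 CPM in aCXCR2 and 2.38 CPM in NRS photoreceptor-like cells.

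**Figure D3:**
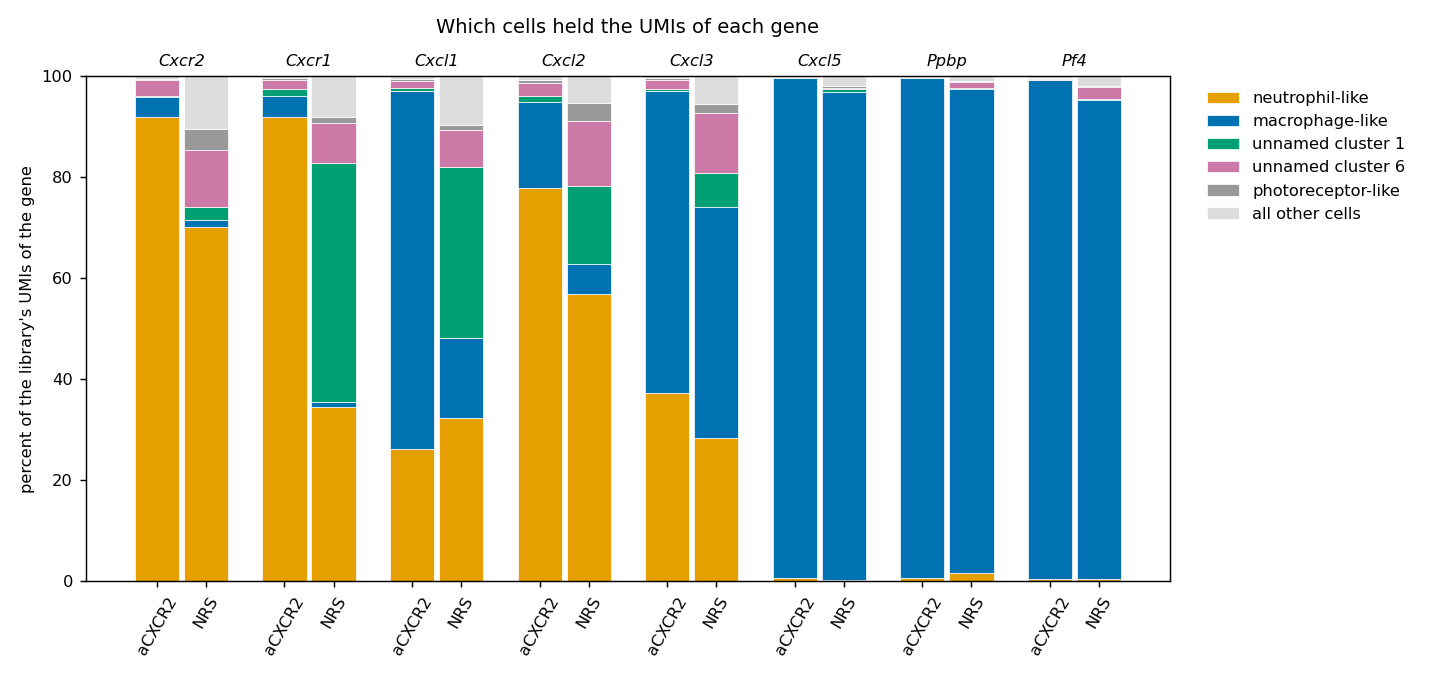
Share of each gene's UMIs (percent of the library's UMIs of that gene) held by cell class, aCXCR2 left of NRS for each gene. Neutrophil-like cells hold 91.9% of Cxcr2 UMIs in aCXCR2 and 70.3% in NRS, and macrophage-like cells hold over 90% of those of Cxcl5, Ppbp and Pf4 in both.

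Cxcl5, Ppbp and Pf4 were transcripts of macrophage-like cells. These cells held 99.1% of Cxcl5 UMIs in aCXCR2 and 96.7% in NRS, 99.2% of Ppbp UMIs in aCXCR2 and 95.9% in NRS, and 98.8% of Pf4 UMIs in aCXCR2 and 94.98% in NRS. In neutrophil-like cells Cxcl5 stood at 0.68 CPM in aCXCR2 and 0.36 CPM in NRS, and Ppbp at 2.21 CPM in aCXCR2 and 0.73 CPM in NRS. The photoreceptor-like cells had 2.79 CPM of Ppbp in aCXCR2 and 0.11 CPM in NRS, where that was 1 UMI. Neutrophil-like levels of Cxcl5 and Ppbp had intervals that overlapped those of photoreceptor-like cells in both libraries, and are read as background.

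Ppbp, which encodes the precursor of the CXCR2 ligand CXCL7, differed most between the libraries among the members measured in macrophage-like cells. It had 151 CPM (148 to 155) in aCXCR2 and 22.2 CPM (19.9 to 24.7) in NRS macrophage-like cells, 6.82-fold higher in aCXCR2, a log2 ratio of 2.77 (2.61 to 2.93). It was higher in aCXCR2, with an interval above 0, in each of the 4 macrophage-like clusters. Cluster 14, led by Ccl8 and C1q genes, had 483 CPM in aCXCR2 and 4.85 CPM in NRS, cluster 9 had 217 CPM in aCXCR2 and 76.3 CPM in NRS, cluster 0 had 100.3 CPM in aCXCR2 and 7.14 CPM in NRS, and cluster 11 had 20.9 CPM in aCXCR2 and 4.39 CPM in NRS. One NRS cell held 172 of the 347 NRS UMIs. Without the top cell of each library the levels were 138 CPM in aCXCR2 and 11.2 CPM in NRS. The ratio lay between 2.32 and 3.62 in 13 alternatives.

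Few cells made Ppbp. It was detected, after thinning, in 4.31% of aCXCR2 (3.41 to 5.37%) and 1.51% of NRS (0.69 to 2.85%) macrophage-like cells, and unthinned in 18.3% of aCXCR2 and 6.91% of NRS. Thinned photoreceptor-like shares were 0.51% in aCXCR2 and 0% in NRS, where 0 of 624 cells allows a share of up to 0.481%. The top 10% of cells held 98.1% of its UMIs in aCXCR2. Of the aCXCR2 cells with at least 10 Ppbp UMIs, 90 of 91 were macrophage-like, and so were all 5 such NRS cells.

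Since Ppbp and Pf4 are platelet genes, a list of 10 other platelet and megakaryocyte markers was set beside them. In macrophage-like cells the list summed to 5.46 CPM in aCXCR2 and 5.06 CPM in NRS, with 5 of 10 markers at 0 in aCXCR2 and 4 of 10 in NRS. Gp1ba and Tubb1 were among those at 0 in both libraries, and Gp9 had 1 UMI in all kept aCXCR2 cells and 0 in NRS. Over all kept cells most of the sum came from Gp6 (263 UMIs in aCXCR2 and 48 in NRS), Clec1b (93 in aCXCR2 and 65 in NRS) and Itga2b (48 in aCXCR2 and 68 in NRS). Cells with at least 10 Ppbp UMIs had 2.24 CPM of the list in aCXCR2, below the 5.32 CPM of aCXCR2 cells with none, and 7 of the 91 had a UMI of the list. The 5 such NRS cells had 10.8 CPM, with a UMI of the list in 1 of them. The part of platelet RNA in the Ppbp and Pf4 values was not tested.

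Pf4 had 3928 CPM (3912 to 3945) in aCXCR2 and 3065 CPM (3038 to 3093) in NRS macrophage-like cells, a log2 ratio of 0.36 (0.34 to 0.37), and thinned shares of 53.0% in aCXCR2 and 61.0% in NRS, against 8.59% in aCXCR2 and 2.56% in NRS photoreceptor-like cells. Its highest cluster was 14 in aCXCR2, at 11773 CPM, against 3278 CPM in NRS. In NRS cluster 9 was slightly higher, at 3457 CPM.

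Pf4 also appeared at a low level outside macrophage-like cells. It had 54.1 CPM in aCXCR2 and 26.3 CPM in NRS neutrophil-like cells, but 64.8 CPM in aCXCR2 and 10.5 CPM in NRS photoreceptor-like cells. The aCXCR2 level in neutrophil-like cells did not exceed its background, and the ratio of 1.04 there is not read as expression. In NRS the neutrophil-like level was above that of photoreceptor-like cells. The ratio was above 0, with an interval above 0, in all 13 clusters compared, photoreceptor-like cluster 7 included (2.90). Among macrophage-like clusters the ratio was 0.83 in cluster 0 and 1.84 in cluster 14, but only 0.05 in cluster 9 and 0.04 in cluster 11. Without the top cell of each library it was -0.036 (-0.067 to -0.0049) in cluster 11 and 0.17 (-0.087 to 0.42) in cluster 6.

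Cxcl5, known in other tissues mainly from epithelial cells, was highest in macrophage-like clusters 9 and 14. These held 1431 and 590 of the 2521 macrophage-like UMIs in aCXCR2, and 830 and 109 of the 982 in NRS. In NRS the place of cluster 14 rested on 1 cell with 106 of the 109 UMIs. Cluster 9 had 167 CPM in aCXCR2 and 218 CPM in NRS, and cluster 14 had 103 CPM in aCXCR2 and 31.1 CPM in NRS. Without the top cell of each library cluster 9 had 133 CPM in aCXCR2 and 80.9 CPM in NRS, and cluster 14 had 78.8 CPM in aCXCR2 and 0.86 CPM in NRS. Over the class it had 46.3 CPM (44.5 to 48.2) in aCXCR2 and 62.9 CPM (59.0 to 66.9) in NRS, a log2 ratio of -0.44 (-0.55 to -0.33). That direction rested on 1 NRS cell with 526 of 982 UMIs. Without the top cell of each library the levels were 40.8 CPM in aCXCR2 and 29.3 CPM in NRS, a ratio of 0.48.

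**Figure D4:**
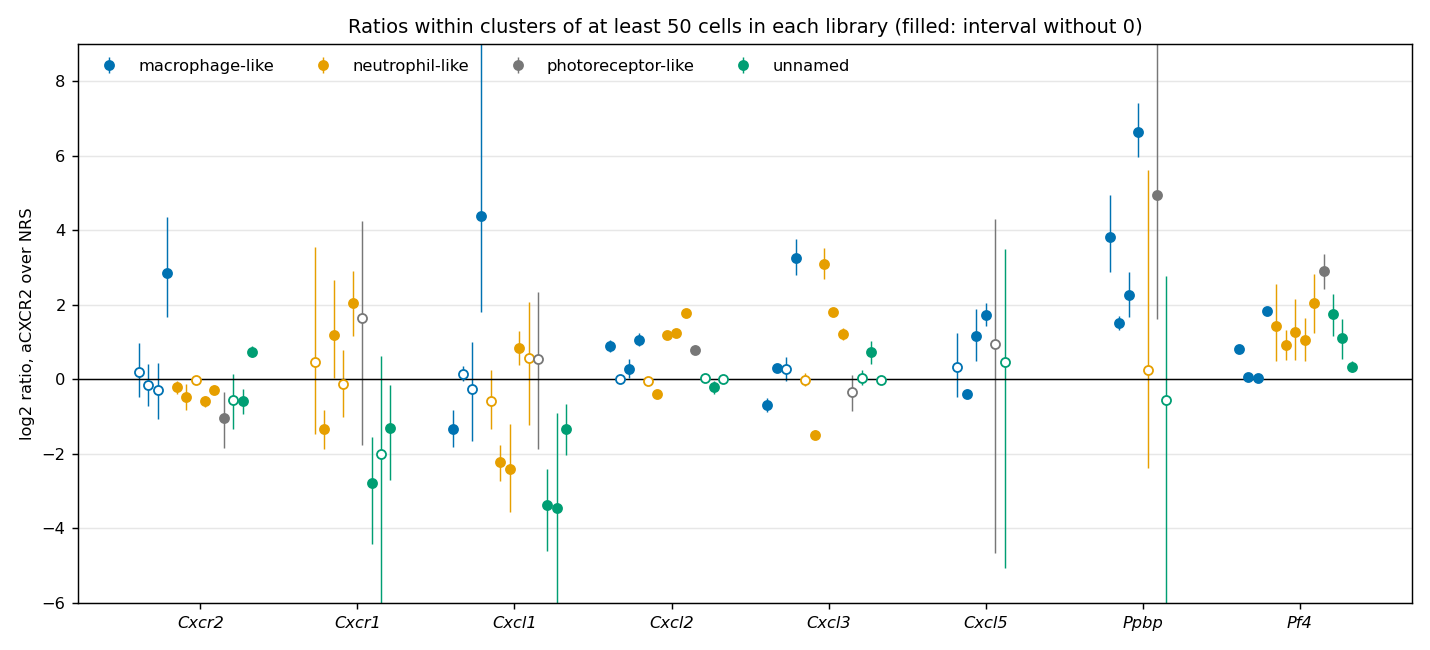
Log2 ratios, aCXCR2 over NRS, of each gene within clusters of at least 50 cells in each library, coloured by class, with exact 95% intervals (cut where they pass the axis); filled points have an interval without 0. Ppbp lies above 0 in all 4 macrophage-like clusters (1.51 to 6.64), and Cxcr2 at or below 0 in all 5 neutrophil-like clusters.

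Set against all genes, the members' ratios were read by a rule of size, at least 2-fold apart with at least 50 CPM in 1 library. In neutrophil-like cells 5 of the 8 members reached that level, and 1 was at least 2-fold higher in aCXCR2 (Pf4, at its background) and 1 lower (Cxcl1). Of all 2942 genes measured there, 2.11% were higher and 6.39% lower (8.5% apart in all). With TMM scaling, which centres on the bulk of genes, 195 were higher and 31 lower, against 62 higher and 188 lower without it. In macrophage-like cells 5 of 8 members were measured, and 1 (Ppbp) was higher and 0 lower, against 4.56% of 2852 genes higher and 2.56% lower (7.12% apart). In all kept cells 5 of 8 were measured, and 2 were higher and 0 lower, against 4.79% of 3550 genes higher and 11.2% lower (15.9% apart), and TMM scaling turned 170 higher and 396 lower into 530 higher and 253 lower. The 2 were Ppbp, with 102 CPM in aCXCR2 and 7.61 CPM in NRS, and Pf4, with 2646 CPM in aCXCR2 and 1061 CPM in NRS. Macrophage-like cells were more frequent in aCXCR2. Cxcl1 and Pf4 in neutrophil-like cells, and Ppbp in macrophage-like and in all kept cells, each reached 50 CPM in 1 library only. Passing the filter thus already called for a difference, and these calls support nothing further.

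The scaling touched every ratio in neutrophil-like cells. The median gene there had a log2 ratio of -0.38, and TMM factors added 0.56 to each ratio. In macrophage-like cells the median gene was at 0.12 and TMM factors moved ratios by -0.01. Relative to the median gene in neutrophil-like cells, Cxcr2, Cxcl2 and Cxcl3 all lay higher in aCXCR2 and Cxcl1 lower, whereas on the scale of total UMIs Cxcl2 lay lower. The neutrophil markers, which took up 170038 CPM in aCXCR2 and 59800 CPM in NRS, moved with this scale.

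**Figure D5:**
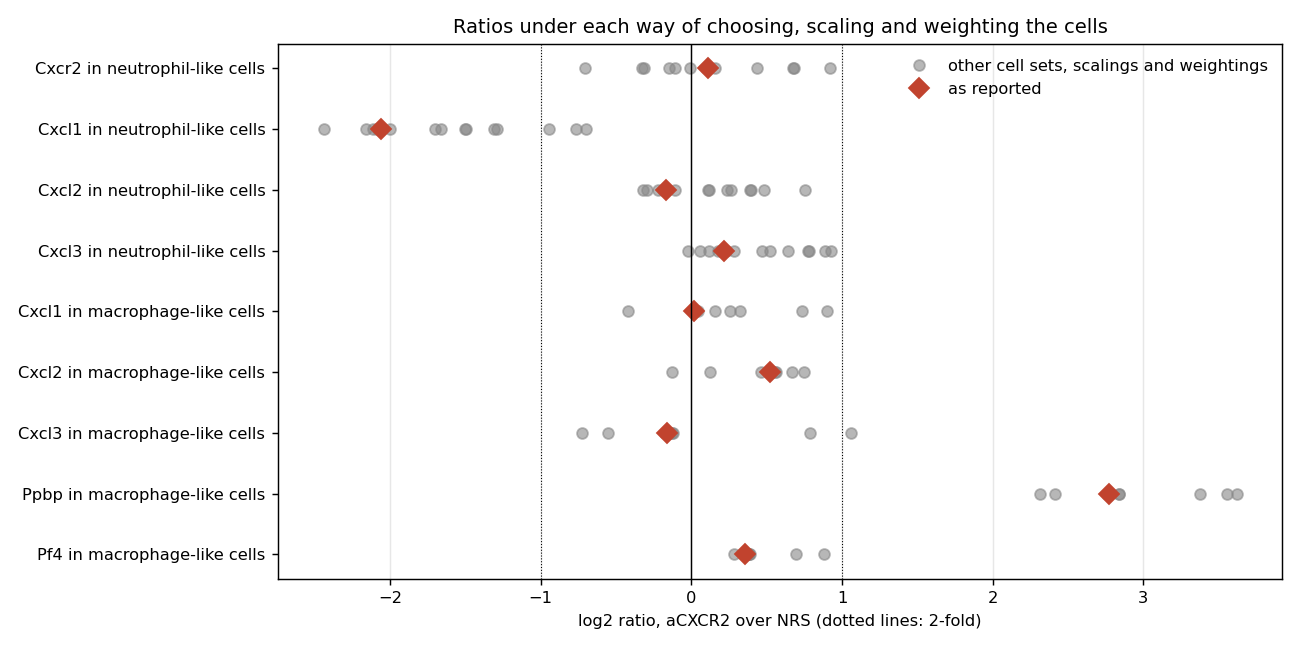
Log2 ratios, aCXCR2 over NRS, of members in neutrophil-like and macrophage-like cells as reported (red) and under each other choice, scaling or weighting of cells (grey); dotted lines mark 2-fold. Cxcl1 in neutrophil-like cells stays below 0 (-2.44 to -0.70) and Ppbp in macrophage-like cells above 2-fold (2.32 to 3.62), whereas Cxcr2, Cxcl2 and, in 1 of 15 alternatives, Cxcl3 in neutrophil-like cells fall on the other side of 0.

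Receptor and ligand transcripts were then compared within single neutrophil-like cells, each thinned to 1000 UMIs. In NRS, Cxcl2 was detected in 57.3% of cells with a Cxcr2 UMI (53.2 to 61.3%) and in 75.8% of cells without one (73.1 to 78.3%). In aCXCR2 these shares were 62.0% (59.0 to 64.9%) and 63.5% (60.8 to 66.1%), which overlapped. Cxcl3 was detected in 16.8% of aCXCR2 cells with a Cxcr2 UMI and 22.9% without, and in 16.6% of NRS cells with one and 24.95% without. The ligands went together. Cxcl3 was found in 29.2% of aCXCR2 cells with a Cxcl2 UMI and 4.87% of those without, and in 29.4% of NRS cells with a Cxcl2 UMI and 5.39% of those without. In aCXCR2 macrophage-like cells, 97.4% of the 76 cells with a Ppbp UMI also had Pf4, against 50.9% of those without. Cells of 1 library are not replicates, and these shares describe the libraries.

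Other genes of the pathway were taken from lists, counting genes that differed at least 1.5-fold and reached 10 CPM in 1 library or more. In neutrophil-like cells 3.92% of all 6887 such genes were higher and 37.7% lower in aCXCR2, with a median of -0.46. Of 7 other chemoattractant receptors measured, 2 were higher and 2 lower (median -0.05). The formyl peptide receptor genes Fpr2 (713 CPM in aCXCR2 and 441 CPM in NRS, 0.69) and Fpr1 (754 CPM in aCXCR2 and 493 CPM in NRS, 0.61) were the 2 higher. Cxcr4, the receptor that retains neutrophils in bone marrow (144 CPM in aCXCR2 and 318 CPM in NRS, -1.14), and the platelet-activating factor receptor gene Ptafr (-0.69) were the 2 lower. With TMM scaling 3 of the 7 were higher and 0 lower, and 16.4% of all such genes were higher and 7.29% lower.

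Of 14 genes of G protein signalling and its effectors measured in neutrophil-like cells, 0 were higher and 2 lower (median -0.09). Beside this and the counts below stand 3.92% of all such genes higher and 37.7% lower. The lowest ratio was that of the G protein subunit gene Gnb1 (-0.63). Of 9 measured genes of receptor desensitisation, 1 was higher (the receptor kinase gene Grk6, 0.65) and 2 lower (Rgs1, -1.08, and Rgs2, -0.60, which speed up the switching off of G proteins). Of 5 atypical receptor genes only Ccrl2, which binds the chemoattractant chemerin, was measured, at 522 CPM in aCXCR2 and 1450 CPM in NRS (-1.47). Of 8 other CXC ligand genes present, only the interferon-induced Cxcl10 was measured, at 173 CPM in aCXCR2 and 116 CPM in NRS (0.57). Ccrl2 was a leading gene of cluster 4 (256 aCXCR2 and 555 NRS cells). Cxcl10 was a leading gene of cluster 5 (606 aCXCR2 and 137 NRS cells). For the genes of these lists no ratio within clusters was taken, so the part of the makeup of the class was not tested. With TMM scaling 6 of the 14 signalling genes were higher and 0 lower (median 0.47), and 3 of the 9 desensitisation genes were higher and 0 lower (median 0.38). On that scale 16.4% of all such genes were higher and 7.29% lower.

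In macrophage-like cells the background was 8% of 7571 genes at least 1.5-fold higher and 5.86% lower in aCXCR2, with a median of 0.08. Of 10 measured regulators of chemokine transcription and mRNA decay, 8 were higher and 0 lower (median 0.79). They included Zfp36, whose protein destabilises chemokine mRNAs (190 CPM in aCXCR2 and 82.7 CPM in NRS, 1.20), Il1r1, the interleukin 1 receptor gene (16.1 CPM in aCXCR2 and 7.62 CPM in NRS, 1.08), and Tnfaip3, an inhibitor of NF-kB signalling (73.2 CPM in aCXCR2 and 35.4 CPM in NRS, 1.05). Il1r1 reached 10 CPM in aCXCR2 only, so passing the filter already called for a difference and its call supports nothing further. The smallest ratio was that of Il17ra (0.11). In neutrophil-like cells 0 of the 9 measured were higher and 0 lower (median -0.08). TMM scaling put 3 of the 9 higher and 0 lower (median 0.48). The background differed in that class, where 37.7% of 6887 genes lay at least 1.5-fold lower in aCXCR2 and 3.92% at least 1.5-fold higher. The median gene there stood at -0.46. TMM scaling changed these background shares to 7.29% lower and 16.4% higher. The difference between the classes was not tested. Cluster 0 made up 1181 of the 1768 aCXCR2 and 63 of the 608 NRS macrophage-like cells. No list in macrophage-like cells was taken within clusters or without cluster 0, so the part of the makeup of the class was not tested.

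Of the 7 other chemoattractant receptors, 4 were higher and 1 lower in macrophage-like cells, with a median of 0.87. The largest was the leukotriene B4 receptor gene Ltb4r1 (115 CPM in aCXCR2 and 32.0 CPM in NRS, 1.85), followed by Fpr2 (1.25), and the lower one was Cxcr4 (81.9 CPM in aCXCR2 and 159.9 CPM in NRS, -0.97). Of 4 other CXC ligand genes measured, 2 were higher and 1 lower, namely Cxcl10 (117 CPM in aCXCR2 and 23.1 CPM in NRS, 2.34) and Cxcl9 (0.60) against Cxcl14 (-1.06). Of 14 signalling genes 2 were higher and 0 lower, and of 9 desensitisation genes 2 were higher and 0 lower (1 higher with TMM scaling, which put 7.77% of all such genes higher and 5.98% lower). Of 2 atypical receptor genes measured, Ackr3 was lower (-0.96). Ackr3 reached 10 CPM in NRS only (5.48 CPM in aCXCR2 and 10.6 CPM in NRS), so that call supports nothing further. The neutrophil marker list summed to 3818 CPM in aCXCR2 and 1774 CPM in NRS macrophage-like cells, against 11230.2 CPM in aCXCR2 and 2747 CPM in NRS photoreceptor-like cells. Its part in these receptor values was not tested.

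The genes whose levels went most like each member's over 18 clusters of both libraries together were found by Pearson correlation of log2(CPM + 10) among 6958 genes. Cxcr2 went with Il1r2, the decoy interleukin 1 receptor gene (r = 0.99), and with Trim30b, H2-Q10 and Il18rap. Cxcl2 went with the immediate early gene Ier3 (0.96) and with Nfkbiz, Nfkbia, Acod1 and Rab11fip1. Cxcl3 went with Cxcl2 (0.85), Clec4e, Chst11, Ptgs2 and Ier3. Cxcl1 went less closely with any gene, and its nearest were Hilpda (0.83), P4ha1, Gbe1, Phlda1 and Fam162a, several of them known to respond to low oxygen.

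The macrophage ligands had other partners. Pf4 went with F13a1 (0.98), Tbxas1, Arg1, Msr1 and Ms4a6d, Ppbp with Ifi211 (0.95), Nrg1, Mndal, Slamf8 and Cfb, and Cxcl5 with Ppbp (0.86), Slc39a14, Il3ra, Gja1 and Dse. Cxcr1 stayed under the 50 CPM that the measure asked of a cluster. Between members, Cxcr2 correlated at 0.65 with Cxcl2, 0.43 with Cxcl3, -0.08 with Cxcl1 and -0.54 with Ppbp. The points share 2 libraries and their depth, clusters were built from genes other than the members, and these values are a description of the clusters.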

How the data were processed

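The authors deposited whole-number UMI counts for every gene and barcode, per the file headers, without any normalization, in 1 matrix for each group. Cell Ranger and Seurat are listed, with no version, in the submitters' processing notes, and a software version of 3.0.0 stands in the matrix headers. The notes list the human build GRCh38, although the gene IDs are mouse. Which mouse build the authors used was not stated, so positions come from the annotations named in the text.

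A barcode was kept from 500 UMIs and 200 genes upwards if mitochondrial genes made up no more than 10% of UMIs, which left out 13.1% of aCXCR2 and 22.7% of NRS barcodes. Scrublet called 5 aCXCR2 cells and 0 NRS cells doublets, so the caller did not work and doublets remain; an alternative left out the 186 aCXCR2 and 256 NRS cells with the highest scores. Cells were clustered with scanpy 1.11.5 and leidenalg 0.10.2 (2000 variable genes without the members, 30 components, 15 neighbours, resolution 1, no correction for library). A cluster of at least 20 cells took a class name when its markers scored at least 1 on a log2 scale against the lower quartile of clusters (prior 100 CPM), no second class reached 1, at least 3 markers were detected and its 10 leading genes did not favour another class. This rule was set after seeing the data, and names may differ from the study's.

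The members, gene lists and markers were chosen with earlier results of these data known. Counts were summed per class and library and divided by total UMIs. Intervals are exact (Poisson, Clopper-Pearson, conditional for ratios) at 95%; a count of 0 allows up to 3 counts. The ratio step was tested on simulated data. Named genes are the members, and for each list up to 4 genes with the largest and smallest ratios. A few genes that these rules name are not reported here. For TMM factors edgeR 4.0.16 was run under R 4.3.3. Sums, intervals and figures were made in Python 3.11.15 with scipy 1.17.1, pandas 2.3.3, numpy 2.4.6 and matplotlib 3.10.9.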

Additional observations from a re-analysis of the deposited data

Results flagged for a closer look

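The direction of Cxcl2 and of Cxcl3 was opposite in neutrophil-like and macrophage-like cells, and this difference was not tested. For Cxcl2 the log2 ratio, aCXCR2 over NRS, was -0.17 in neutrophil-like and 0.52 in macrophage-like cells, a difference of -0.69. For Cxcl3 it was 0.21 in neutrophil-like and -0.16 in macrophage-like cells, a difference of 0.38. The Cxcl3 directions did not stay opposite in every setting, since the macrophage-like ratio was 1.06 without cluster 0 and 0.79 with clusters weighted equally. With TMM scaling Cxcl2 was above 0 in both classes, and with every cell weighted equally it was below 0 in both. Macrophage-like Cxcl2 (512 CPM in aCXCR2 and 357 CPM in NRS) lay near the photoreceptor-like level (514 CPM in aCXCR2 and 357 CPM in NRS). Macrophage-like cells were deeper, with medians of 30047.5 UMIs in aCXCR2 and 23281 UMIs in NRS. Photoreceptor-like medians were 5844.5 and 6069 UMIs. Near-equal CPM thus stands for more Cxcl2 UMIs per macrophage-like cell. Of the 921 photoreceptor-like UMIs in aCXCR2, 448 were from 1 cell. The part of free RNA was not tested.

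Barcodes that the cell filter left out, 725 in aCXCR2 and 1659 in NRS, also held UMIs of all 8 members above the limit that a count of 0 allows. Cxcr2 stood there at 183 CPM in aCXCR2 and 26.5 CPM in NRS, and Cxcr1 at 3.56 CPM in aCXCR2 and 4.27 CPM in NRS. Cxcl1 stood at 11.7 CPM in aCXCR2 and 17.4 CPM in NRS, and Cxcl2 at 1290.5 CPM in aCXCR2 and 674 CPM in NRS. Cxcl3 stood at 491 CPM in aCXCR2 and 106 CPM in NRS, and Cxcl5 at 23.1 CPM in aCXCR2 and 1.01 CPM in NRS. Ppbp stood at 30.5 CPM in aCXCR2 and 0.43 CPM in NRS, the last from 6 UMIs, and Pf4 at 720.4 CPM in aCXCR2 and 65.7 CPM in NRS.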

How the results depend on the processing

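No paired analysis was possible because each group was 1 library, and for the same reason no replicate was left out. Of 21 member ratios, 11 kept their sign under every alternative run. Those that did not are Cxcr2, Cxcr1, Cxcl2 and Cxcl3 in neutrophil-like cells, Cxcr2, Cxcl1, Cxcl2, Cxcl3 and Cxcl5 in macrophage-like cells, and Cxcl2 in all kept cells. The cause of each move was not tested. Values below are log2 ratios, aCXCR2 over NRS.

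In neutrophil-like cells, for Cxcr2, Cxcl1, Cxcl2 and Cxcl3 in that order, they were 0.67, -1.50, 0.39 and 0.77 with TMM factors, and 0.68, -1.49, 0.40 and 0.78 with factors by the median of ratios. Values were -0.71, -0.70, 0.11 and 0.28 at Leiden resolution 0.5, and -0.11, -0.94, 0.24 and 0.47 at resolution 2. They were -0.33, -1.29, -0.22 and 0.060 with the members left in the variable genes, and 0.16, -1.31, 0.12 and 0.52 with the libraries clustered separately. They were -0.15, -1.66, -0.32 and 0.12 without cluster 13, and 0.43, -1.70, 0.26 and 0.64 with cluster 3 added. With 3 alternatives chosen after seeing the data, they were -0.31, -0.77, 0.75 and 0.92 with clusters weighted equally, 0.92, -2.11, 0.48 and 0.89 with clusters 1 and 3 added, and -2.44, -0.19 and 0.17 for the 3 ligands without the top cell of each library. With every cell weighted equally Cxcr2 was -0.0074, Cxcl2 -0.30 and Cxcl3 -0.021, and with the strict filter (1000 UMIs, 500 genes, 5% mitochondrial) Cxcl2 was -0.11.

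In macrophage-like cells, for Cxcl1, Cxcl2, Cxcl3, Ppbp and Pf4 in that order, they were -0.42, 0.12, -0.56, 2.41 and 0.38 with the strict filter, and 0.26, -0.13, -0.73, 2.32 and 0.28 with every cell weighted equally. Chosen after seeing the data, they were 0.90, 0.75, 1.06, 3.37 and 0.88 without cluster 0, 0.33, 0.67, -0.12, 3.62 and 0.38 without the top cells, and 0.73, 0.56, 0.79, 3.55 and 0.69 with clusters weighted equally. With separate clustering Cxcl3 was -0.13 and Pf4 0.39, and without the highest doublet scores Cxcl2 was 0.46 and Pf4 0.37.

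Genes at least 2-fold apart numbered 250 in neutrophil-like and 566 in all kept cells. A minimum of 10 CPM gave 864 in neutrophil-like and 1830 in all kept cells, and the strict filter gave 349 in all kept cells. TMM factors turned the neutrophil-like split of 62 higher and 188 lower into 195 higher and 31 lower, and the all-cell split of 170 and 396 into 530 and 253.

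Of 72 alternatives for thinned shares, 27 stayed within the interval and 45 did not. Few UMIs limit Cxcr1 in both classes and Cxcl5 and Ppbp in neutrophil-like cells.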
